A study of Mus musculus with 19 samples.

Results

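The AP-1 transcription factor genes were taken as 10 genes matched by symbol: Fos, Fosb, Fosl1, Fosl2, Jun, Junb, Jund, Batf, Batf3 and Atf3. All 10 were present in both expression tables, among 14290 genes with values in Tregs stimulated in culture and 14818 genes with values in Tregs sorted from tissue. In the stimulated set 9 of the 10 reached at least 1 RPKM (reads scaled by transcript length and by the size of the library) in at least 2 libraries and were tested, all except Batf3. In the sorted set 7 of the 10 were tested, all except Fosl1, Batf3 and Atf3.

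Regulatory T cells (Tregs) hold immune responses in check. All 19 libraries were made from YFP-positive Tregs of C57Bl/6 mice in which Foxp3, the gene of the Treg lineage factor, drives Cre recombinase and yellow fluorescent protein, so the WT cells carry Foxp3-CRE-YFP as well. Cells of the p65KO groups also carried floxed p65 (Rela) alleles, and cells of the c-RelKO and c-Rel-deficient groups floxed c-Rel (Rel) alleles. Deletion was therefore driven in Foxp3-expressing cells. The stimulated set held WT Tregs with pentoxifylline at 500 ug/mL, c-Rel-deficient Tregs, and WT Tregs with the water diluent, with 2 libraries each. These cells had been kept for 16 hours on plate-bound anti-CD3 (5 ug/mL) with soluble anti-CD28 (1 ug/mL) and interleukin 2 (10 ng/mL). The sorted set came from spleen and lymph nodes without culture. It held activated Tregs (aTreg, CD44 high) with 2 p65KO, 2 c-RelKO and 3 WT libraries, and resting Tregs (rTreg, CD44 low) with 2 libraries each of p65KO, c-RelKO and WT. Age is not given in the labels, and nothing there says whether libraries of a group came from separate mice or cultures, so p-values measure the spread between these libraries.

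AP-1 factors are pairs of basic leucine zipper (bZIP) proteins. Jun proteins pair with each other or with Fos, Batf or Atf proteins, whereas Fos proteins need a partner from another family. In T cells the pairs are made within hours of antigen receptor and CD28 signalling, through MAP kinases and protein kinase C theta, and bind DNA together with NFAT or, in the case of Batf, with IRF4 or IRF8. Batf and JunB are known to take part in the differentiation of activated Tregs.

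All 6 Treg and T cell markers (Foxp3, Il2ra, Ctla4, Ikzf2, Cd3e and Cd4) reached 1 RPKM in all 19 libraries, but the library labelled c-RelKO rTreg replicate 2 stood apart in them. Ikzf2, which encodes Helios, had 43.2 and 4.35 RPKM in c-RelKO rTregs 1 and 2, against 41.2 and 47.0 RPKM in WT rTregs. Foxp3 had 73.6 and 28.1 RPKM in c-RelKO rTregs, against 71.9 and 97.5 RPKM in WT rTregs, and Il2ra had 178 and 65.5 RPKM, against 122 and 180 RPKM. Named differences of members that rest on that library are given with and without it where they were at least 0.5 on the log2 scale. Smaller ones are given only with it. The targeted gene Rel had 2.44 and 25.0 RPKM in the c-Rel-deficient libraries 1 and 2, against 55.1 and 55.8 RPKM with water, so the library labelled c-Rel-deficient replicate 2 stood between replicate 1 and the controls. Among sorted cells Rel lay between 1.39 and 5.37 RPKM in the c-RelKO libraries and between 10.9 and 22.0 RPKM in WT. Rela lay between 46.8 and 69.4 RPKM in p65KO libraries and between 62.3 and 71.5 RPKM in WT, and since the deleted part of the gene is not resolved in a gene total, this checks little. Xist was at 0.00965 and 22.3 RPKM in pentoxifylline libraries 1 and 2, against 0.0153 and 18.7 RPKM in water libraries 1 and 2, and at 0.0111 and 0.0209 RPKM in c-Rel-deficient libraries. Ddx3y was at 39.7 and 6.33 RPKM with pentoxifylline and 23.7 and 27.7 RPKM in c-Rel-deficient libraries, against 27.8 and 2.73 RPKM with water. WT libraries of the same number were thus alike in these sex-linked genes, while c-Rel-deficient replicate 2 differed from water replicate 2 in both, and the part of this in the differences from c-Rel-deficient Tregs was not tested. Among sorted libraries Ddx3y was at 12.4 and 15.5 RPKM in c-RelKO rTregs, against 26.1 and 39.1 RPKM in WT rTregs. It was at 16.8 and 26.0 RPKM in c-RelKO aTregs, against 30.2, 40.3 and 24.2 RPKM in WT aTregs. Xist was at 6.51 and 4.41 RPKM in c-RelKO rTregs, against 3.08 and -1.94 RPKM in WT rTregs. It was at 11.1 and 3.52 RPKM in c-RelKO aTregs, against 3.10, -1.94 and 3.52 RPKM in WT aTregs. The part of this in the c-RelKO differences was not tested. The sorted values carry an adjustment that no header describes, and 2.535% of them lie below 0.

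Pentoxifylline, a phosphodiesterase inhibitor that raises cyclic AMP, was set against its diluent in stimulated WT Tregs. Fosl2 rose, while Fosb, Atf3, Batf and Fos fell, so the Fos family split in its direction. Fosl1 was lower as well, but it reached the minimum of 1 RPKM only through the water and c-Rel-deficient libraries, so it had to differ and its values are a description. The 3 Jun genes did not pass the test. In limma, with Benjamini-Hochberg adjustment over all 9945 genes and a threshold of 0.05, 1 of the 9 tested members was higher and 5 were lower, where 43.5% of all genes tested were called in either direction (19.6% higher and 23.9% lower). At an unadjusted p under 0.05 there were 6 members and 52.8% of all genes. Without Fosl1 the count was 1 higher and 4 lower of 8. The genes called numbered 4324, and 2232 without water replicate 2 or 2449 without pentoxifylline replicate 1. The share of members called is thus read against a background in which a large part of the transcriptome differed. Libraries of the 2 groups did not overlap in 75.5% of all genes tested, beside which lack of overlap in a member is read.

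**Figure D1:**
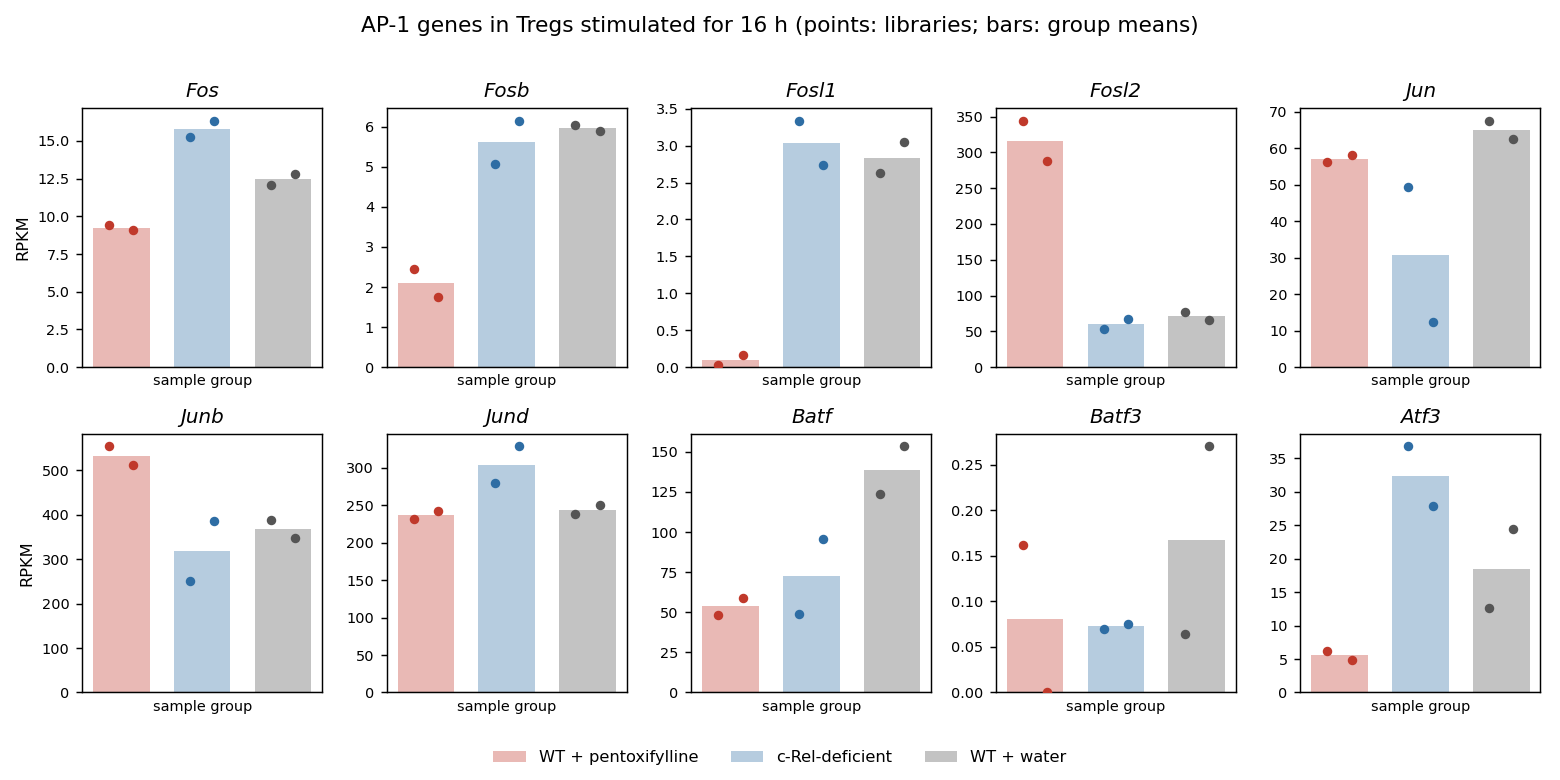
RPKM of the 10 AP-1 genes in stimulated Tregs (y axis, linear, its own scale in each panel), with points for libraries and bars for the mean of 2 libraries in WT with pentoxifylline, c-Rel-deficient and WT with water. Fosl2 reached 287.3 to 344.5 RPKM with pentoxifylline, above every library of the other groups, and Fosl1 stayed at or below 0.157 RPKM there.

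Fosl2 encodes Fra-2, a Fos protein that lacks the strong activation domain of c-Fos. Its level was 344.5 and 287.3 RPKM with pentoxifylline, against 76.6 and 65.6 RPKM with water. Both treated libraries lay far above both controls, a log2 difference of 2.14 ± 0.18 (SE; adjusted p = 0.000571, limma), 4.44 times the water mean. Compared within the libraries of the same number, the difference was 2.16 for number 1 and 2.12 for number 2.

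Fosl1 encodes Fra-1, the other Fos-related antigen. It had 0.0338 and 0.157 RPKM with pentoxifylline, against 2.63 and 3.05 RPKM with water. The groups did not overlap, and the log2 difference was -2.49 ± 0.25 (SE), on the log2(RPKM + 0.5) scale, which understates the change of so low a gene. Its values are whole multiples of a step within each library, 1 and 4 steps with pentoxifylline and 98 and 108 steps with water, so the low levels rest on very few reads. In the GENCODE M21 annotation 57.21% of the exon bases of Fosl1 are shared with Ccdc85b on the opposite strand, and whether counting used strand is not given in the sources used here. Ccdc85b, named here for that overlap, had 9.03 and 8.05 RPKM with pentoxifylline, against 7.87 and 7.97 RPKM with water (log2 difference 0.10, 95% interval -0.24 to 0.44).

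Fosb and Fos encode the Fos proteins with strong activation domains and are classical immediate early genes. Fosb had 2.44 and 1.76 RPKM with pentoxifylline, against 6.05 and 5.89 RPKM with water, a log2 difference of -1.33 ± 0.20 (SE; adjusted p = 0.00259, limma). Fos had 9.44 and 9.06 RPKM with pentoxifylline, against 12.1 and 12.8 RPKM with water. The fall of Fos was small, at -0.41 ± 0.13 on the log2 scale (SE; adjusted p = 0.0422, limma), with groups that did not overlap, and it lost its call without any 1 of the 6 libraries (adjusted p 0.0655 to 0.178) and without the filter on low values (0.0527). In the authors' deposited table Fos had a log2 fold change of -0.39 and an adjusted p of 0.429.

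Atf3 encodes a stress-induced partner of Jun proteins that often acts as a repressor. It had 6.27 and 4.88 RPKM with pentoxifylline, against 12.6 and 24.4 RPKM with water, with a log2 difference of -1.58 ± 0.30 (SE; adjusted p = 0.00605, limma). Batf encodes a factor without an activation domain that works with Jun proteins and IRF4 in activated T cells. It had 48.6 and 58.9 RPKM with pentoxifylline, against 123.8 and 153.7 RPKM with water. No treated library reached a control library in either gene, and Batf differed by -1.36 ± 0.30 (SE; adjusted p = 0.0101, limma), or 0.387 of the water mean. Its call was lost without water replicate 2 (adjusted p = 0.0669) or without pentoxifylline replicate 1 (0.0588). Batf3, a close relative of Batf, was at 0.162 and 0 RPKM with pentoxifylline, against 0.0642 and 0.271 RPKM with water. These values stand for 0 to 4 steps, so no difference was detectable at this depth.

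The Jun genes supply the partner for the other members. Junb had 555.3 and 511.8 RPKM with pentoxifylline, against 389.3 and 348.8 RPKM with water. The libraries did not overlap, but the log2 difference of 0.53 (95% interval -0.02 to 1.08) did not pass the test (adjusted p = 0.102, limma). In the authors' deposited table Junb had a log2 fold change of 0.54 with an adjusted p of 0.0410, and with it 2 members were called higher and 4 lower there, where 22.7% of all genes in the authors' deposited table were called. Jun had 56.2 and 58.0 RPKM with pentoxifylline, against 67.5 and 62.5 RPKM with water, a log2 difference of -0.19 with an interval of -1.42 to 1.05. Jund had 231.8 and 242.0 RPKM with pentoxifylline, against 237.8 and 250.3 RPKM with water, and its difference of -0.04 had the narrowest interval of the Jun genes, -0.41 to 0.33. On the opposite strand GENCODE M21 annotates other exons over 52.58% of the exon bases of Jund (Gm11175), 7.52% of those of Junb (Prdx2) and 7.28% of those of Jun (Junos).

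Other signals moved with the drug. The 15 stress and dissociation genes outside the members summed to 989 and 1021 RPKM with pentoxifylline, against 1495 and 1919 RPKM with water. Of the 15, 14 reached 1 RPKM in both pentoxifylline libraries and 13 in both water libraries. Of the 8 B cell markers 5 reached 1 RPKM in each of these libraries, and their sum was 19.5 and 12.5 RPKM with pentoxifylline, against 40.5 and 52.3 RPKM with water. Most of that sum came from class II genes (H2-Aa among them, with 6.36 and 2.70 RPKM with pentoxifylline, against 13.6 and 17.6 RPKM with water), while Ms4a1 and Pax5 stayed at or below 0.289 and 0.113 RPKM in all 6 stimulated libraries. The part of these signals in the AP-1 differences was not tested. In such bulk libraries fewer cells that express a gene and less RNA per cell cannot be told apart.

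**Figure D2:**
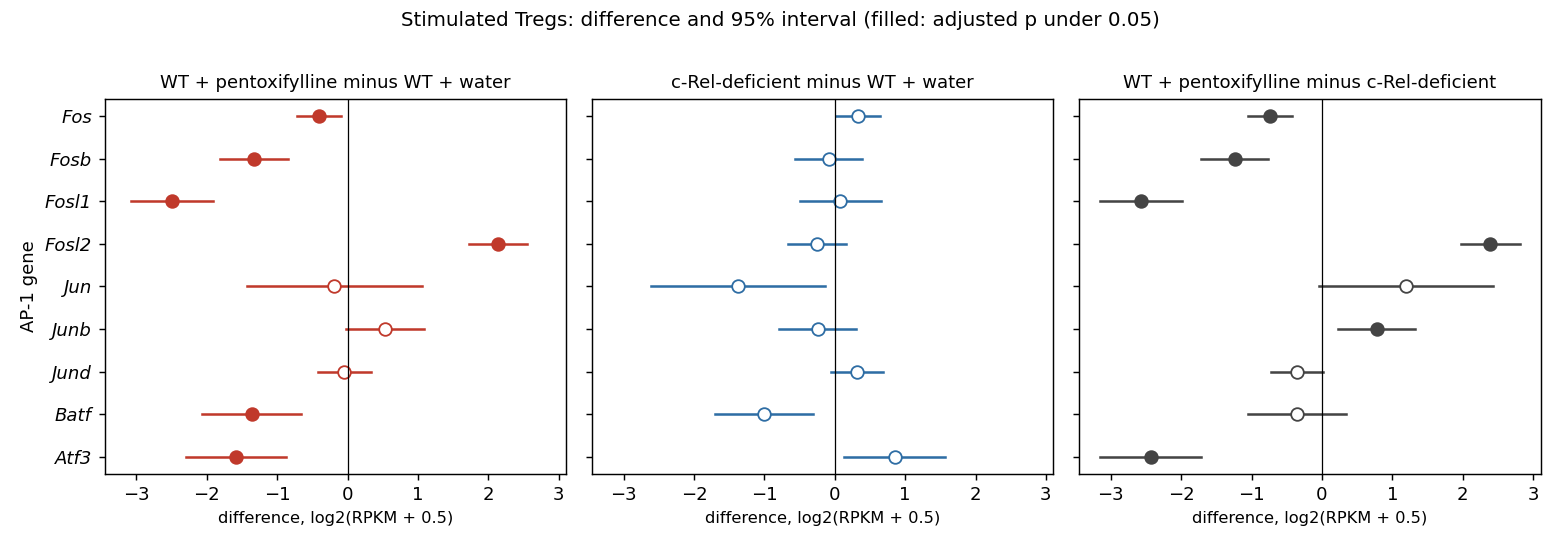
Differences on the log2(RPKM + 0.5) scale (x axis) with 95% intervals for the 9 tested AP-1 genes in the 3 comparisons of the stimulated set; filled points have an adjusted p under 0.05 in limma. Fosl2 stands alone on the right at 2.14 in the panel of pentoxifylline minus water, and no point is filled in the panel of c-Rel-deficient minus water.

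Since cyclic AMP acts on genes through CREB proteins bound at TGACG or TGACNTCA motifs, and NF-kB proteins such as c-Rel bind kappaB motifs, the 250 bases before the RefSeq start (GRCm38.p6) were searched on both strands in the 9 members with an entry, all except Fosl1. TGACG was present in 5 of 9 members (Fos, Fosb, Junb, Batf and Atf3), against 17.8% of 32851 RefSeq promoters, and was added to the search after the sequences had been read. TGACNTCA, which contains TGACG where N is G, was present in 1 of 9, in Jun as TGACATCA, against 7.49% of promoters. A kappaB motif of 10 bases was present in 3 of 9 (Fos, Fosb and Fosl2, in Fosl2 as a pair of overlapping matches), against 3.90% of promoters. The AP-1 motif TGANTCA and the serum response element motif CArG were in 0 of 9, against 6.75% and 1.47% of promoters. These matches are letters in a window and not shown binding sites. The windows of the 6 members with TGACG or TGACNTCA are shown so that the matches can be seen beside the levels given here; of these 6, Fos, Fosb, Batf and Atf3 fell with pentoxifylline, and Jun and Junb did not pass the test. Capitals mark the matches: TGACG, read on the opposite strand in Atf3, the longer match in Jun, and the kappaB motif where the capitals run over 10 bases. The window of Batf stops where GENCODE M21 begins its first exon, and that of Fosl2 lies wholly within an annotated exon and is not shown. Of the other windows without these motifs, that of Batf3 has 163 of its 250 bases in annotated exons, and that of Jund ends before the start that GENCODE M21 gives the gene, so what was searched there depends on the start chosen.
Fos, chr12:85473640-85473889, plus strand: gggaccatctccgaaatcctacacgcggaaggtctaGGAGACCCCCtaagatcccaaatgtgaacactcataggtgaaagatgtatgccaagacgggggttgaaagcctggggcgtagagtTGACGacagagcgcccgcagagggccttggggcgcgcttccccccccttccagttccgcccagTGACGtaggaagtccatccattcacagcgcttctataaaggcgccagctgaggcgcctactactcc
Fosb, chr7:19310046-19310295, minus strand: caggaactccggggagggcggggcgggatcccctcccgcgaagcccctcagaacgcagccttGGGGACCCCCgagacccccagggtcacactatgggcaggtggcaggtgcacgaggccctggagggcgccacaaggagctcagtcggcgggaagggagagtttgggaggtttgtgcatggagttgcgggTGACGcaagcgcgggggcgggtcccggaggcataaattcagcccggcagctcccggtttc
Jun, chr4:95052223-95052472, minus strand: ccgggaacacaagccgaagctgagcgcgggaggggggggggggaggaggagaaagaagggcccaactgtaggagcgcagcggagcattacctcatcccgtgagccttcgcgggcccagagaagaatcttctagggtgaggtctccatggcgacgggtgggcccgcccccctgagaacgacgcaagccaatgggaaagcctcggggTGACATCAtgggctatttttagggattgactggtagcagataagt
Junb, chr8:84978749-84978998, minus strand: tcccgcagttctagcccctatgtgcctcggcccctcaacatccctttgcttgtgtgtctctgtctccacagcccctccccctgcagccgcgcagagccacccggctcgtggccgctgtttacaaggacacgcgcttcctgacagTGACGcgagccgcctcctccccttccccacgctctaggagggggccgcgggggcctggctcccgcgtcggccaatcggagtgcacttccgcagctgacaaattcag
Batf, chr12:85686470-85686668, plus strand: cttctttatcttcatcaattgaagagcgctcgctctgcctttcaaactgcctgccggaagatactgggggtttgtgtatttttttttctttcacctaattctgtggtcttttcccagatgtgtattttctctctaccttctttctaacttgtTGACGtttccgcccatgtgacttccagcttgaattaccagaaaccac
Atf3, chr1:191183334-191183583, minus strand: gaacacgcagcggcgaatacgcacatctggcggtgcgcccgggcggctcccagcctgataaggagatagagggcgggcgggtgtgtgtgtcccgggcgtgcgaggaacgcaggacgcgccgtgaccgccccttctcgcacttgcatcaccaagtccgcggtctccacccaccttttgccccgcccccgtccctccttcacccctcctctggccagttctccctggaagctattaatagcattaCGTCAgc

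In Fos the TGACG motifs began 129 and 66 bases before the start, in Fosb 60, in Junb 106 and in Batf 98 bases before it. TGACATCA of Jun began 45 bases before the start. All these distances count from the RefSeq start, and in Batf 51 bases of annotated exon lie between the shown sequence and that start. The match of Atf3 began 7 bases before the start, and 7 bases of its window lie in annotated exons, so this match may lie in an exon. GENCODE M21 begins the Atf3 gene farther upstream, at base 191218039 on the minus strand, so what was searched there depends on the start chosen.

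The c-Rel deletion was set against WT with water, and 0 of the 9 tested members passed the test in limma, where 0% of the 9945 genes were called and 4 of 9 members and 7.95% of all genes had an unadjusted p under 0.05. These 4 were Batf, Jun, Atf3 and Fos. Without c-Rel-deficient replicate 2, 284 genes were called, and without replicate 1, 1 gene. The authors' deposited table called 1 member, Batf, with a log2 fold change of -1.23 and an adjusted p of 0.000106, where 2.14% of its genes were called. Both comparisons with water use the same 2 water libraries.

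Batf had 48.9 and 95.9 RPKM in the c-Rel-deficient libraries, against 123.8 and 153.7 RPKM with water. The library with the lower Rel had the lower Batf. Among sorted c-RelKO libraries the order was the reverse, in aTregs and in rTregs. Whether Batf followed Rel was not tested. The log2 difference of Batf between c-Rel-deficient and water was -1.0 (95% interval -1.71 to -0.30), with an adjusted p of 0.461 in limma. Without c-Rel-deficient replicate 2, the library with 25.0 RPKM of Rel, the difference was -1.49 and passed the test (adjusted p = 0.0206, limma, with the lone library assumed to vary like the other groups). Without c-Rel-deficient replicate 1 it was -0.52 and did not pass. Within the libraries of the same number the Batf difference was -1.33 for number 1 and -0.68 for number 2. Jun behaved otherwise across the same libraries, with 49.3 and 12.3 RPKM, against 67.5 and 62.5 RPKM with water. Its low value was in the library that kept Rel, and its difference of -1.38 (interval -2.61 to -0.14) passed the test only without c-Rel-deficient replicate 1 (-2.36, adjusted p = 0.0203, limma). Without c-Rel-deficient replicate 2 the Jun difference was -0.39, and within numbers it was -0.45 for number 1 and -2.30 for number 2.

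Atf3 had 36.9 and 28.0 RPKM in c-Rel-deficient Tregs, against 12.6 and 24.4 RPKM with water, a log2 difference of 0.85 (interval 0.14 to 1.56; adjusted p = 0.530) that was 0.39 without water replicate 1 and 1.31 without water replicate 2. Fos had 15.2 and 16.4 RPKM, against 12.1 and 12.8 RPKM with water, a difference of 0.33 (interval 0.02 to 0.65). In both genes the libraries of the groups did not overlap, as was also the case for Batf, Jun and Jund, 5 of 9 members beside 40.5% of all genes. Fosl1, Fosb, Fosl2 and Junb had overlapping libraries, with log2 differences between -0.25 and 0.08. For Fosl1, at 3.34 and 2.73 RPKM in c-Rel-deficient Tregs against 2.63 and 3.05 RPKM with water, the interval of the difference was -0.50 to 0.66, and for Fosl2, at 52.9 and 66.9 RPKM against 76.6 and 65.6 RPKM, it was -0.66 to 0.16. The 15 stress and dissociation genes summed to 2100 and 1954 RPKM in c-Rel-deficient Tregs, against 1495 and 1919 RPKM with water, and the 8 B cell markers to 8.93 and 8.69 RPKM, against 40.5 and 52.3 RPKM; their part in the differences was not tested.

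Set directly against the c-Rel deletion, pentoxifylline gave higher Fosl2 and Junb and lower Fosl1, Atf3, Fosb and Fos in limma, 2 of 9 members higher and 4 lower where 48.4% of all genes were called (21.6% higher and 26.8% lower). Fosl1 again had to differ, and without it the count was 2 higher and 3 lower of 8. The genes called numbered 3027 without pentoxifylline replicate 1, in place of 4815. Libraries of these 2 groups did not overlap in 77.5% of all genes tested. Atf3 had 6.27 and 4.88 RPKM with pentoxifylline against 36.9 and 28.0 RPKM in c-Rel-deficient Tregs, without overlap, a log2 difference of -2.43 ± 0.30 (SE; adjusted p = 0.000967, limma). Fosl2 differed by 2.39 ± 0.18 (SE; adjusted p = 0.000298, limma), and Fosl1, as a description, by -2.57 ± 0.25 (SE). Junb differed by 0.77 ± 0.23 (SE; adjusted p = 0.0291, limma), with 555.3 and 511.8 RPKM against 250.5 and 386.9 RPKM. The Junb call was lost without pentoxifylline replicate 1 (adjusted p = 0.133), pentoxifylline replicate 2 (0.0781) or c-Rel-deficient replicate 1 (0.178, with a difference of 0.46), and without the filter on low values (0.0686). Batf did not pass, with a difference of -0.36 and an interval of -1.06 to 0.35, nor did Jun (1.19, interval -0.05 to 2.43), which passed without c-Rel-deficient replicate 1 (2.17, adjusted p = 0.00112, limma) and was 0.21 without c-Rel-deficient replicate 2, or Jund (-0.36, interval -0.73 to 0.02).

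By group mean, Junb was the leading AP-1 transcript, at a mean of 533.5 ± 30.7 RPKM with pentoxifylline, 318.7 ± 96.4 RPKM in c-Rel-deficient Tregs and 369.0 ± 28.7 RPKM with water (SD, n = 2 each). Summed over the 10 genes, the Jun family held 67.2% to 78.1% of the AP-1 RPKM in the 6 stimulated libraries. Fosl2 alone held 26.0% ± 2.1 with pentoxifylline, 7.11% ± 0.035 in c-Rel-deficient Tregs and 7.66% ± 0.83 with water (SD, n = 2 each). Batf held 4.44% ± 0.81 with pentoxifylline, 8.37% ± 2.5 in c-Rel-deficient Tregs and 15.0% ± 2.3 with water. The sum of the 10 genes was higher with pentoxifylline, 1214 ± 57 RPKM, than in c-Rel-deficient Tregs, 843 ± 143 RPKM, or with water, 928 ± 0.75 RPKM. No test was made on these shares, which are descriptions of the levels above.

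**Figure D3:**
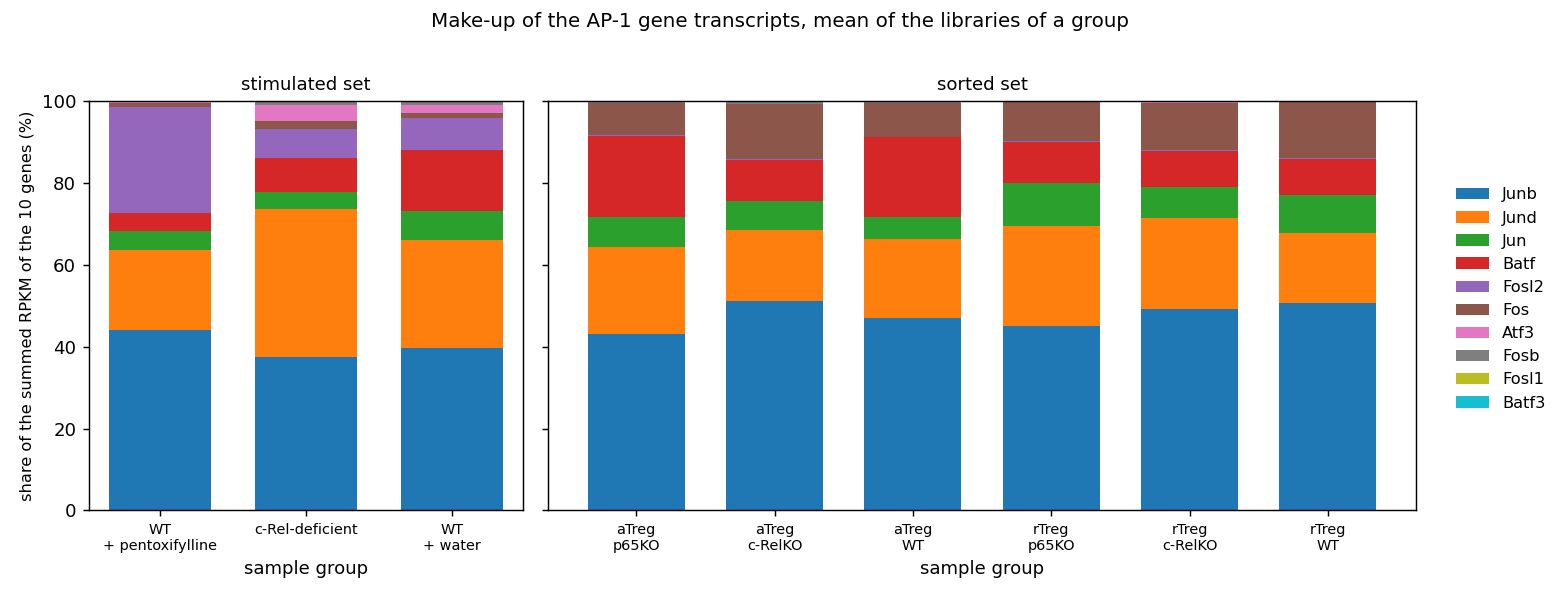
Share of the summed RPKM of the 10 AP-1 genes (y axis, percent, mean over the libraries of a group) held by each gene in the 9 groups, with the stimulated and the sorted set in panels of their own because they were normalized separately. Fosl2 takes 26.0% with pentoxifylline and 7.66% with water, and Batf takes 19.7%, 9.97% and 19.4% in p65KO, c-RelKO and WT aTregs.

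Genes around AP-1 were followed in 4 lists. Of 19 tested other bZIP factors, 7 rose and 0 fell with pentoxifylline against water (median log2 difference 0.52). Crem, a cyclic AMP responsive bZIP gene, averaged 447.4 ± 36.3 RPKM with pentoxifylline and 141.4 ± 8.4 RPKM with water (adjusted p = 0.00292), Ddit3, a stress factor, 121.1 ± 60.3 and 34.7 ± 2.4 RPKM (adjusted p = 0.00598), and Jdp2, which dimerizes with Jun, 9.35 ± 3.1 and 3.02 ± 0.057 RPKM (adjusted p = 0.00540, limma; SD, n = 2 each). Bach2, a bZIP repressor that competes for AP-1 sites in Tregs, averaged 53.6 ± 3.8 RPKM with pentoxifylline and 26.1 ± 1.5 RPKM with water, also called (adjusted p = 0.00395, limma). 

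The 9 transcription factors that bind beside AP-1 included 2 that rose and 4 that fell with pentoxifylline. Irf4 and Irf8, which bind with Batf, were both lower: Irf4 averaged 27.8 ± 8.7 RPKM with pentoxifylline and 118.7 ± 21.6 RPKM with water (adjusted p = 0.00178, limma), and Irf8 averaged 7.38 ± 3.6 and 113.1 ± 52.6 RPKM (adjusted p = 0.000733, limma). Nfatc1 fell by 0.80 on the log2 scale and Nfatc3 rose by 0.75. Of 25 upstream kinases and factors, 9 rose and 3 fell (median 0.13), with Mapk3 (ERK1) at 74.8 ± 5.7 RPKM with pentoxifylline and 34.5 ± 2.1 RPKM with water and Map2k3, a kinase of p38, at 63.9 ± 1.6 and 141.3 ± 24.5 RPKM (SD, n = 2 each). Of 21 tested genes known as AP-1 targets in T cells, 3 rose and 11 fell (median -0.93). The largest differences were those of the chemokines Ccl4 (-5.63) and Ccl3 (-5.06) and the cytokines Ifng (-4.14) and Tnf (-3.18). Ccl4 was at 2.60 ± 3.1 RPKM with pentoxifylline and 119.6 ± 68.8 RPKM with water. These genes answer to other factors too, and the lists are set beside the 43.5% of all genes called.

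In the comparison of c-Rel-deficient Tregs with water, 0 genes of each of the 4 lists were called, with medians of 0.17, 0.10, 0.37 and -0.13 for the other bZIP factors, upstream genes, binding partners and targets, and 0.06 over all genes. In pentoxifylline against c-Rel-deficient Tregs the counts were 6 higher and 1 lower of 19, 7 and 4 of 25, 2 and 4 of 9, and 3 and 10 of 21, where 48.4% of all genes were called. Irf4 averaged 27.8 ± 8.7 RPKM with pentoxifylline and 203.7 ± 64.8 RPKM in c-Rel-deficient Tregs there (adjusted p = 0.000488, limma; SD, n = 2 each).

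The sorted set asks how AP-1 genes differ between activated and resting Tregs and whether loss of p65 or c-Rel changes them. Batf was the member called in limma, higher in aTregs than in rTregs within p65KO and within WT. In WT 1 of 7 tested members was higher and 0 lower, where 12.2% of 10656 genes were called (7.54% higher and 4.68% lower), and in p65KO 1 was higher and 0 lower where 3.17% were called (2.79% higher and 0.385% lower). An unadjusted p under 0.05 was reached by 3 of 7 members and 33.3% of all genes in WT, and by 1 of 7 members and 21.9% of all genes in p65KO. These backgrounds move with single libraries. In WT 1302 genes were called, and between 83 (without WT aTreg replicate 1) and 2963 (without WT rTreg replicate 2) on leaving out a library. In p65KO 338 were called, 806 without WT aTreg replicate 3, and 0 to 11 without any 1 of the 4 p65KO libraries. In c-RelKO 0 of 7 members were called, where 0% of genes were called in limma and 2 of 7 members (Fosb and Batf) and 14% of all genes had an unadjusted p under 0.05. That 0 depends on the fit: with a term for replicate number, 901 genes and 1 member (Fosb) were called in c-RelKO, beside 2077 genes in WT and 731 in p65KO, and without WT aTreg replicate 3, 179 genes were called in c-RelKO. The authors' deposited table holds the WT comparison of these 3, and called 2 of the 10 members higher there, Batf and Fosb, where 11.2% of its genes were called.

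**Figure D4:**
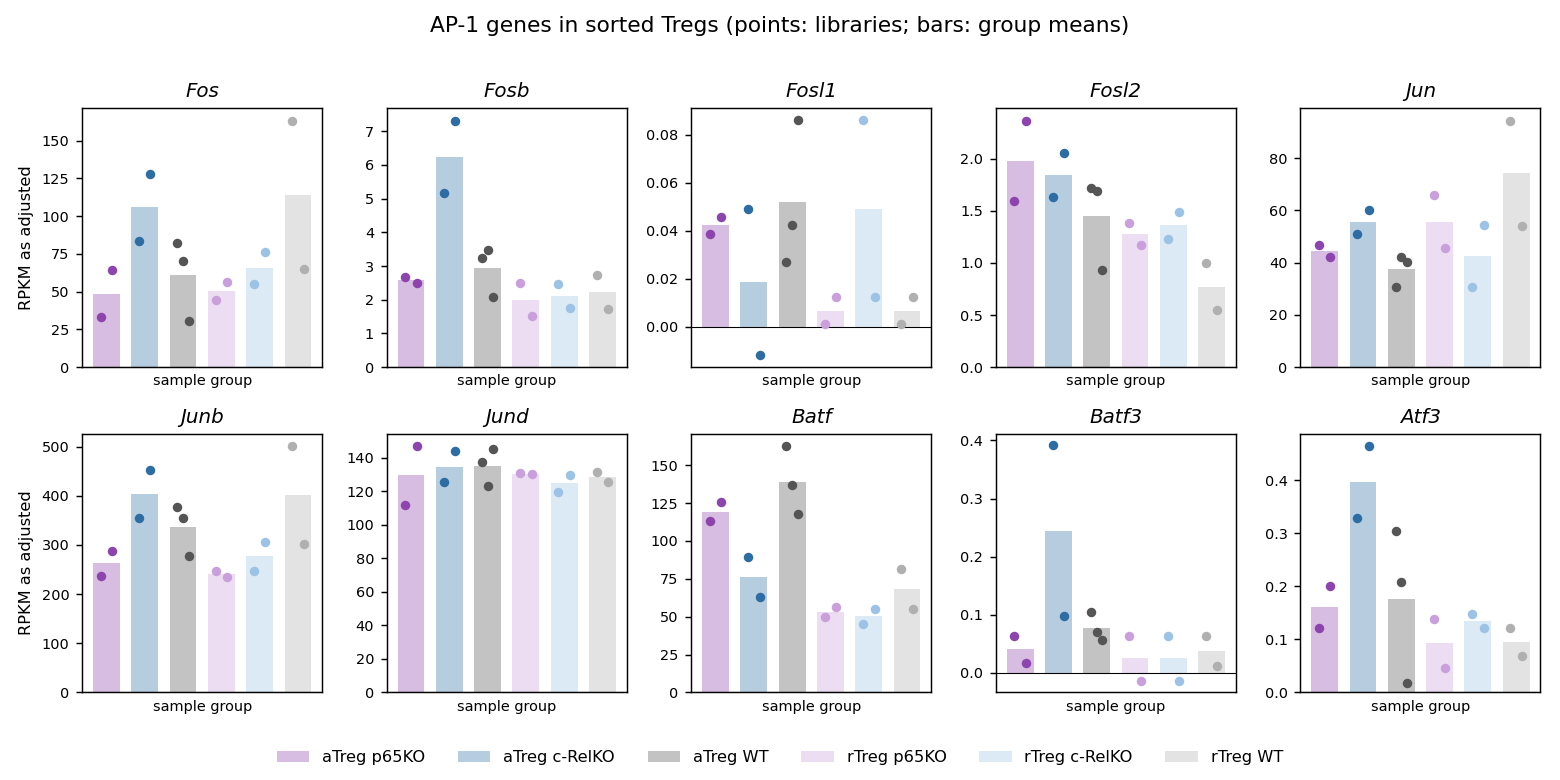
Adjusted RPKM of the 10 AP-1 genes in sorted Tregs (y axis, linear, its own scale in each panel), with points for libraries and bars for group means in aTregs (darker) and rTregs (lighter) of p65KO, c-RelKO and WT. Batf lay at or above 113.0 RPKM in all p65KO and WT aTreg libraries and at or below 89.4 RPKM in all others.

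Batf had 113.0 and 125.8 RPKM in p65KO aTregs, against 49.9 and 56.7 RPKM in p65KO rTregs. In WT it had 162.7, 136.9 and 117.5 RPKM in aTregs, against 81.3 and 55.2 RPKM in rTregs. In c-RelKO it had 89.4 and 63.2 RPKM in aTregs, against 45.2 and 55.2 RPKM in rTregs. In all 3 genotypes each aTreg library lay above each rTreg library of its genotype, with c-RelKO aTregs the nearest to their rTregs. Of all genes tested, 64.2% in p65KO, 40.9% in WT and 52% in c-RelKO had no overlap between these groups, in either direction.

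The log2 difference of Batf between aTregs and rTregs was 1.16 ± 0.23 in p65KO and 1.03 ± 0.21 in WT (SE; adjusted p = 0.0270 and 0.0217, limma). In c-RelKO it was 0.58 with an interval of 0.08 to 1.09 and did not pass (adjusted p = 0.296), and without c-RelKO rTreg replicate 2 it was 0.73 (adjusted p = 0.894, limma). The test of the difference itself did not separate c-RelKO from WT (interaction -0.45, interval -1.14 to 0.24, adjusted p = 0.898, limma) or p65KO from WT (0.12, interval -0.57 to 0.81). In aTregs, c-RelKO against WT gave a log2 difference of -0.87 for Batf (interval -1.33 to -0.41). It failed the adjustment over all genes (adjusted p = 0.299, limma). The Batf libraries of these 2 groups did not overlap, beside 25.6% of all genes tested. In p65KO the Batf call was lost on leaving out any of its 4 libraries (adjusted p 0.140 to 0.167) while its difference stayed between 1.07 and 1.25, and in WT without aTreg replicate 1 (0.0875), without aTreg replicate 2 (0.0710) or in a fit of the 2 groups alone (0.0782). Ordered by mean, Batf ran from WT aTregs (139.0 RPKM) and p65KO aTregs (119.4) through c-RelKO aTregs (76.3) and WT rTregs (68.3) to p65KO rTregs (53.3) and c-RelKO rTregs (50.2), and among neighbours in that order only p65KO and c-RelKO aTregs did not overlap.

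**Figure D5:**
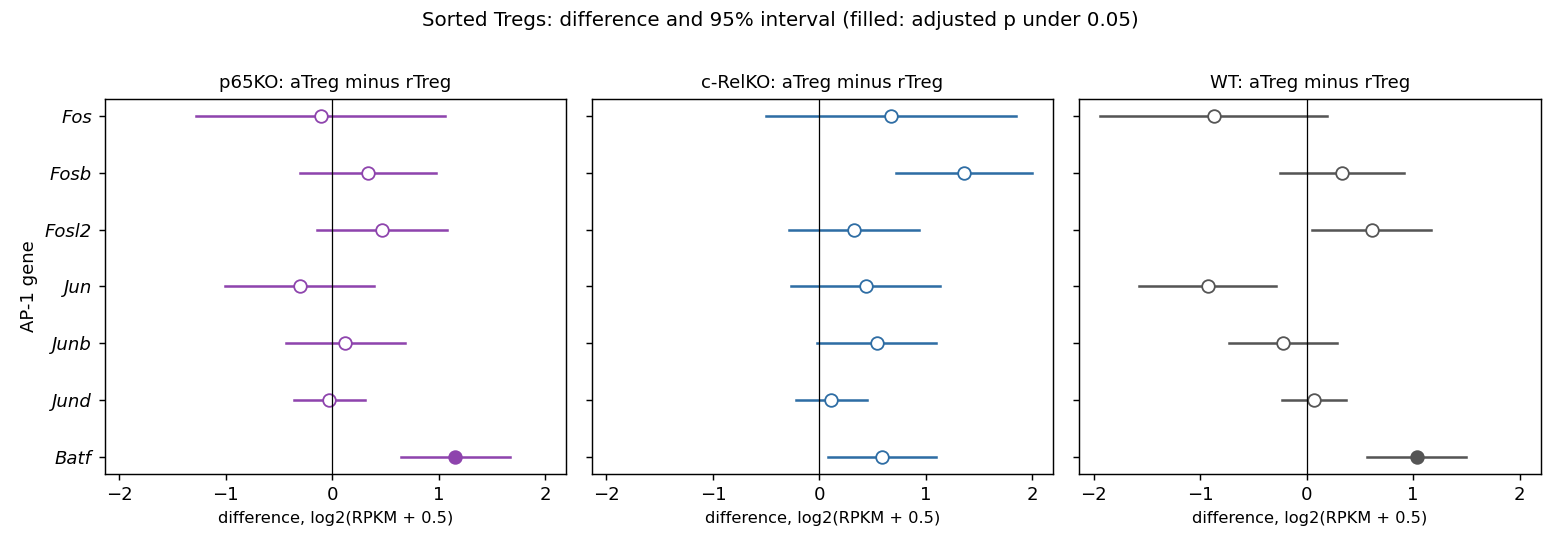
Differences between aTregs and rTregs on the log2(RPKM + 0.5) scale (x axis) with 95% intervals for the 7 tested AP-1 genes in p65KO, c-RelKO and WT; filled points have an adjusted p under 0.05 in limma. Batf is filled in p65KO and WT, and in c-RelKO all 7 points lie above 0 with Fosb the highest at 1.36.

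Fosb had 5.16 and 7.32 RPKM in c-RelKO aTregs, against 2.47 and 1.77 RPKM in c-RelKO rTregs, and all other sorted libraries lay between 1.51 and 3.49 RPKM. Both c-RelKO aTreg libraries were thus the highest of the 13. The log2 difference between c-RelKO aTregs and rTregs was 1.36 (interval 0.72 to 2.00), with an adjusted p of 0.173 in limma. It passed with a term for replicate number (1.55, adjusted p = 0.0154) and without WT aTreg replicate 3 (1.36, adjusted p = 0.0385), and was 1.16 without c-RelKO rTreg replicate 2 (adjusted p = 0.894, limma). Against WT aTregs, at 3.23, 3.49 and 2.08 RPKM, the difference was 0.98 (interval 0.40 to 1.57; adjusted p = 0.377, limma), and the authors' deposited table gave a log2 fold change of 0.93 with an adjusted p of 0.763. In WT, aTregs stood against rTregs at 2.73 and 1.73 RPKM, a difference of 0.33 (interval -0.25 to 0.92; adjusted p = 0.400), whereas the authors' deposited table gave 1.15 with an adjusted p of 0.0421.

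Fos and Jun were led by single libraries. Fos had 83.7 and 128 RPKM in c-RelKO aTregs, against 54.9 and 76.4 RPKM in c-RelKO rTregs, and 81.9, 70.4 and 30.7 RPKM in WT aTregs, against 163 and 65.2 RPKM in WT rTregs. Jun had 51.1 and 60.2 RPKM in c-RelKO aTregs, against 30.8 and 54.4 RPKM in c-RelKO rTregs, and 30.5, 42.1 and 40.1 RPKM in WT aTregs, against 94.4 and 53.9 RPKM in WT rTregs. WT rTreg replicate 1 was the highest of the 13 libraries in Fos, Jun and Junb. Within WT the aTregs were thus below rTregs in Jun without overlap, where 40.9% of all genes did not overlap. The difference was -0.93 (interval -1.57 to -0.29), just short of the threshold (adjusted p = 0.0582, limma). Without WT rTreg replicate 2 that difference was -1.33 and passed (adjusted p = 0.0225, limma), and it also passed without either c-RelKO rTreg library (0.0468 and 0.0469). Without WT rTreg replicate 1 it was -0.53 and did not pass (adjusted p = 0.300, limma).

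The difference between aTregs and rTregs had opposite signs in c-RelKO and WT for Fos and Jun, but the test of that difference was not passed. The interaction was 1.54 for Fos (interval -0.04 to 3.13), 1.36 for Jun (0.42 to 2.31), 1.03 for Fosb (0.16 to 1.89) and 0.76 for Junb (0.00 to 1.52), each with an adjusted p of 0.898 in limma. An unadjusted p under 0.05 was reached by 3 of 7 members here (Jun, Fosb and Junb), where 4.66% of all genes reached it and 0% were called. On leaving out a library the interaction ran from 0.88 to 2.20 for Fos, 0.96 to 1.77 for Jun, 0.76 to 1.29 for Fosb and 0.40 to 1.12 for Junb, without a call. Fos, Fosb and Junb were lowest without WT rTreg replicate 1. Without c-RelKO rTreg replicate 2 the values were 1.78 for Fos, 1.77 for Jun, 0.83 for Fosb and 0.91 for Junb. With a term for replicate number 3 genes were called in this interaction. For p65KO against WT, 0 of 7 members reached it, where 2.22% of all genes did.

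Junb lay between 234.2 and 501.3 RPKM in all sorted libraries, with 237.7 and 288.2 RPKM in p65KO aTregs, 354.0 and 452.2 RPKM in c-RelKO aTregs, and 376.3, 355.5 and 278.1 RPKM in WT aTregs. In rTregs it had 247.4 and 234.2 RPKM in p65KO and 248.0 and 305.2 RPKM in c-RelKO, against 501.3 and 302.2 RPKM in WT. Jund was the steadiest member, with group means between 124.8 and 135.3 RPKM and overlapping libraries between all neighbours in their order. Its intervals between aTregs and rTregs were -0.36 to 0.31 in p65KO, -0.22 to 0.44 in c-RelKO and -0.24 to 0.37 in WT.

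Fosl2, at 315.9 RPKM in the stimulated cells with pentoxifylline, was a low transcript in sorted cells, although levels of separately normalized sets cannot be compared exactly. It had 1.60 and 2.37 RPKM in p65KO aTregs, 1.63 and 2.05 RPKM in c-RelKO aTregs and 1.72, 1.69 and 0.935 RPKM in WT aTregs. In rTregs it had 1.39 and 1.17 RPKM in p65KO, 1.23 and 1.49 RPKM in c-RelKO and 0.996 and 0.548 RPKM in WT. The difference between aTregs and rTregs did not pass in any genotype, with 0.47 in p65KO, 0.33 in c-RelKO and 0.61 in WT (intervals -0.14 to 1.08, -0.28 to 0.94 and 0.05 to 1.17). In WT it passed without aTreg replicate 3 (0.82, adjusted p = 0.0329, limma), was 0.87 without rTreg replicate 1 and was 0.35 without rTreg replicate 2. Both WT rTreg libraries lay below the minimum of 1 RPKM. Fosl2 reached it through other groups, aTregs among them, so its WT differences are a description. The untested members stayed below 0.5 RPKM in all 13 libraries, with highest values of 0.465 RPKM for Atf3 and 0.392 RPKM for Batf3, both in c-RelKO aTregs, and 0.0861 RPKM for Fosl1. Depth cannot be read from the sorted values, so the precision of these low values is unknown.

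Between genotypes within a subset, 0 of 7 members were called in p65KO or c-RelKO against WT, in aTregs or rTregs, or between the deletions, where 0% of all genes were called in limma in each. With a term for replicate number 44 genes were called in c-RelKO against WT aTregs, 46 in p65KO against c-RelKO aTregs and 1 in p65KO against WT aTregs, with 0 members among them. Unadjusted p-values under 0.05 were reached by 0 members in aTregs and 1 (Junb) in rTregs for p65KO against WT, beside 3.43% and 6.81% of all genes. For c-RelKO against WT they were reached by 2 (Batf and Fosb) in aTregs and 1 (Jun) in rTregs, beside 6.73% and 7.27%, and for p65KO against c-RelKO by 3 in aTregs (Fosb, Batf and Junb) and 0 in rTregs, beside 5.95% and 2.02%. The Jun difference between c-RelKO and WT rTregs was -0.79, and -1.20 without c-RelKO rTreg replicate 2. The authors' deposited table called 0 of 10 members in its 4 comparisons of a deletion with WT, where between 0.027% and 0.52% of its genes were called. For p65KO against c-RelKO aTregs, Fosb differed by -1.10 (interval -1.75 to -0.46) and Batf by 0.66 (interval 0.15 to 1.17), with adjusted p of 0.419 and 0.640 in limma. The Batf difference was 0.41 without c-RelKO aTreg replicate 3.

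In these sorted libraries the Jun family held 68.5% to 81.9% of the AP-1 RPKM and the Fos family 5.49% to 17.1%. Batf held 19.7% ± 1.4 in p65KO aTregs, 9.97% ± 3.7 in c-RelKO aTregs and 19.4% ± 0.95 in WT aTregs, against 9.99% ± 1.1, 8.92% ± 0.11 and 8.73% ± 0.56 in rTregs of p65KO, c-RelKO and WT (SD, n = 2 or, in WT aTregs, 3). Both c-RelKO aTreg libraries had the highest B cell marker sums of the 13: the 8 markers summed to 117.2 and 65.9 RPKM there, mainly from class II genes and with Ms4a1 at or below 0.0324 RPKM, against 36.3, 28.4 and 15.5 RPKM in WT aTregs. The 5 NK and cytotoxic markers summed to 51.7 and 18.3 RPKM, against 8.56, 2.98 and 13.1 RPKM in WT aTregs, and reached 32.8 RPKM in c-RelKO rTreg replicate 2. Their part in the values of Fosb, Fos and Batf in c-RelKO aTregs was not tested. The stress and dissociation sum was 1569 and 1809 RPKM in c-RelKO aTregs, against 1704, 1660 and 1636 RPKM in WT aTregs, and 1985 RPKM in WT rTreg replicate 1, the highest of the 13.

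Around AP-1 in sorted Tregs, 5 of 20 tested other bZIP factors were higher and 1 was lower in WT aTregs than in WT rTregs, among them Jdp2 at 3.43 ± 0.89 and 0.562 ± 0.45 RPKM (adjusted p = 0.0190) and Nfil3 at 14.03 ± 6.4 and 3.70 ± 0.0036 RPKM (adjusted p = 0.0204, limma; SD, n = 3 and 2), where 12.2% of all genes were called. Of the 9 binding partners 1 was higher, Nfatc1, at 76.4 ± 14.7 RPKM in aTregs and 31.0 ± 0.83 RPKM in rTregs (adjusted p = 0.00930, limma). Upstream genes gave 1 higher (Map2k3) and 1 lower (Prkcq, protein kinase C theta) of 25. AP-1 targets gave 3 higher and 2 lower of 18. The inhibitory receptors Pdcd1 (2.64) and Havcr2 (2.24) and the costimulator Icos (1.92) were higher on the log2 scale. Jdp2 and Havcr2 averaged 0.562 and 0.422 RPKM in WT rTregs, below the minimum of 1 RPKM. Havcr2, also called in p65KO, averaged 0.448 RPKM in p65KO rTregs. Both genes reached that minimum through other groups, aTregs among them, so their calls are a description. In p65KO 2 of 20 other bZIP factors were higher and 1 was lower, 0 of 9 binding partners and 0 of 25 upstream genes were called, and 3 of 18 targets were higher, where 3.17% of all genes were called, with Nfil3 at 18.2 ± 1.1 RPKM in aTregs and 3.70 ± 0.40 RPKM in rTregs. In c-RelKO 0 genes of the 4 lists were called, and in the comparisons between genotypes and the interactions 0 were called as well.

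The genes most like a member were sought in each set for the tested member with the widest range of group means, by the root mean square difference of centred log2 values. In the stimulated set that was Fosl1, and over 6 libraries the nearest of 9944 genes were Isyna1 (0.0866), Ipo4 (0.0911), Ankrd13b (0.105) and Tsr1 (0.112). In the sorted set that was Batf, and over 13 libraries the nearest of 10655 genes were Sh2d1a (0.177), Tnfrsf4 (0.178), Arl6 (0.185) and Cers4 (0.193). The libraries of a set share their scaling, and in so few libraries such likeness is a description. For Fosl1 it says less, because Fosl1 had to differ and its pentoxifylline values rest on very few reads. Its difference between pentoxifylline and water ran from -3.98 to -1.81 with the constant added before the log2. Nearness to Fosl1 on this scale therefore does not show an equal change in RPKM. Whether the same genes are nearest with another constant was not tested.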

How the data were processed

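RNA was sequenced from 19 Treg libraries. Per the submitters' processing notes, tools named were STAR and DESeq2 1.10.1 and the build was mm10. For each set the authors deposited a table of RPKM by library. Beside them, per the file headers, stand the log2 fold change and p-value of each comparison the authors made. Decimal commas were read as points. Because of those commas the deposited columns carry no standard unit in the record of the files. The sorted RPKM were adjusted in a way no header describes: same-numbered libraries (26 pairs) share 15883 identical values, and differently numbered ones (52 pairs) share 0. Rows with a date in place of a symbol (20 and 21) hold no values. All per-sample columns were used. Some marker genes are not reported here.

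Negative values were raised to 0 and the scale was log2(RPKM + 0.5). The filter asked for 1 RPKM in 2 or more libraries of the set, which left 9945 and 10656 genes. These were tested by group means over all libraries of the set in limma 3.58.1 (R 4.3.3, eBayes with trend, two-sided, Benjamini-Hochberg, threshold 0.05, 95% intervals); 12 contrasts and 2 interactions were fitted, and the procedure was tested on simulated data. The deposited p-values were adjusted here. The tables and figures were made in Python 3.11.15 with pandas 2.3.3, numpy 2.4.6 and matplotlib 3.10.9. Depth is not given. Low values in 84.98% of 2416 genes of the stimulated set are whole multiples of a step within 0.02, which put the libraries at 0.682 to 1 of water replicate 1, but these values may carry a scaling by the authors. Between 9469 and 9751 genes reached 1 RPKM in stimulated and between 9765 and 10317 in sorted libraries.

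Always named were the members; from each list up to 4 called genes with the largest difference per comparison; and 4 genes like a member. Members and lists, written from general knowledge, were chosen with earlier results of these data known. Deviations of same-numbered libraries correlated at 0.40 between pentoxifylline and water, -0.07 between c-Rel-deficient and water and 0.12 between pentoxifylline and c-Rel-deficient, and from -0.49 to 0.44 in the sorted set. The labels do not say what a number shares, and these correlations did not show pairs across all groups, so the fit has no replicate block. Stimulated WT libraries of the same number correlated at 0.40 and were alike in Xist and Ddx3y, so pairing there is not excluded. The identical values show that the sorted adjustment went with replicate number. Values with a block therefore stand beside the results that it changes. Alternatives were other pseudocounts, filters and scaling, the compared groups alone, a replicate block, genes with values below 0 left out, and each library left out. Coordinates are GRCm38 (mm10), from RefSeq and GENCODE M21.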

Additional observations from a re-analysis of the deposited data

How the results depend on the processing

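Of 46 differences of AP-1 genes, those called or at least 0.5 in size on the log2 scale, followed through the alternatives, none changed sign in those run. With libraries kept, 343 values kept their side of the threshold, 4 lost a call and 1 gained one. Leaving out a library kept 454, lost 17 and gained 8; the lone library of a group is then assumed to vary like the others. On leaving out a library, 4 to 5 members were called for pentoxifylline against water, fewer than the 1 higher and 5 lower of the main fit. These counts include Fosl1, which had to differ. The number of members called ran from 5 to 7 for pentoxifylline against c-Rel-deficient, and from 0 to 1 for c-Rel-deficient against water. For aTregs against rTregs it ran from 0 to 2 in WT, 0 to 1 in p65KO and 0 to 1 in c-RelKO. In the compared groups alone, 0 members were called in WT, with 208 genes called in place of 1302, and 1450 in place of 338 in p65KO. Same-numbered sorted libraries were not shown to be pairs. With the replicate block 1 member was called in c-RelKO (Fosb), and the genes called numbered 901 there, 2077 in WT and 731 in p65KO. The block gave 44 genes for c-RelKO against WT aTregs, 46 for p65KO against c-RelKO aTregs, 1 for p65KO against WT aTregs, 3 for the c-RelKO interaction and 1 for c-Rel-deficient against water, each in place of 0. Without the filter these aTreg counts were 40, 5 and 1, and 3 for c-Rel-deficient against water, where the compared groups alone gave 4. The Fosl1 difference between pentoxifylline and water ran from -3.98 to -1.81 over the pseudocounts 0.1 and 1. The causes were not tested. Unknown depth limits the low genes, and 2 libraries a group limit all intervals.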
